A study of Mus musculus with 4 samples.

Results

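Adamdec1 and 9 further genes of the ADAM family, which encodes cell surface and secreted metalloproteases, were followed in the spleens of 4 mice. The members were Adamdec1, Adam28, Adam7, Adam8, Adam9, Adam11, Adam12, Adam15, Adam19 and Adam23, 10 of the 19297 genes measured. Each was read by 1 probe set that carries its symbol alone. The family was chosen by the leukaemic minus wild type difference of Adamdec1, the largest fall of all genes in this same comparison, so every difference of a member between the groups is a description and is given without a p-value.

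Arrays were hybridised with total RNA of whole spleen from mice of strain 129Sv, each mouse on an array of its own. Every mouse was RBP-J flox/flox, that is, it carried loxP sites in both copies of the gene of RBP-J, the DNA-binding partner of Notch receptors. The 2 wild type mice were Ren1d+/+, aged 80 and 81 days, and their spleens weighed 0.12 g and 0.16 g. The 2 leukaemic mice were Ren1dcre/cre, with cre recombinase at both copies of the renin gene Ren1d. Leukaemic replicates 1 and 2 were aged 107 and 93 days, with spleens of 0.7 g and 0.47 g. Leukaemic replicate 2 was male and the others were female. Cre is thus placed in the renin gene itself, and the labels describe the leukaemia as one of B cells. Genotype at Ren1d, age, spleen size and disease run together in these groups and cannot be told apart. Values are log2 expression values, on which a difference of 1 is a factor of 2, and the number of arrays limits their precision.

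ADAM proteins typically hold a propeptide, a metalloprotease domain, a disintegrin domain that can bind integrins, and a membrane anchor. Catalytic members cut the extracellular part off other membrane proteins, a reaction called shedding, and thereby release cytokines, growth factors and adhesion molecules. Several members have lost the zinc-binding site and act in cell contact instead. In lymphoid tissue the family is known for shedding the low-affinity IgE receptor CD23 and tumour necrosis factor, and for the cleavage that lets Notch signal. Adamdec1 is an unusual relative, a soluble protein with a shortened disintegrin region and an atypical active site, known from mononuclear phagocytes and from intestinal stroma.

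The labelled tissue and disease were checked against marker genes first. Markers of mature B cells averaged 11.23 and 10.96 in wild type replicates 1 and 2, and macrophage markers 10.86 and 10.63. Precursor B cell markers averaged 7.77 and 7.67 in wild type against 10.15 and 10.32 in leukaemic spleen. Wild type replicate 2 stood apart, because 15 of 15 exocrine pancreas genes exceeded the highest of the other spleens by 1 or more (log2). Their mean was 11.70 in it and between 6.60 and 6.73 in the others. The floxed gene Rbpj differed by -0.38 (SE 0.22, limma adjusted p = 0.41) in its brighter probe set. Its other probe set read 6.40 and 6.71 in wild type against 6.58 and 6.49 in leukaemic spleen. No source used here says whether either set covers the floxed sequence. Over all genes, limma called 475 of 19297 (2.46%) at an adjusted p under 0.05, with 276 higher (1.43%) and 199 lower (1.03%). Limma gave 3989 genes an unadjusted p under 0.05. Without wild type replicate 2 it called 0, with 3141 at an unadjusted p under 0.05, and every limma call given for a gene below is lost in that fit. Without wild type replicate 1 it called 38, and of the called genes named below that are not members, Igll1 and Enpep were still called.

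Promoter sequences were at hand for 4 of the 10 members, Adam8, Adam15, Adam19 and Adam23, from RefSeq (build GRCm38.p6). Those of Adam8 and Adam19 are shown because these are the members, besides Adamdec1, with the largest differences between the groups, both lower in the leukaemic mice. Each window below runs 5′ to 3′ on the gene's strand, from 250 bases before the annotated start to 30 bases after it. Capitals mark matches to the searched motifs. Adam8 lies on the minus strand at chr7:139992533-139992812. For Adam19, on the plus strand, the table holds 3 start sites, and the window with a match is shown, chr11:46054252-46054531.
Adam8: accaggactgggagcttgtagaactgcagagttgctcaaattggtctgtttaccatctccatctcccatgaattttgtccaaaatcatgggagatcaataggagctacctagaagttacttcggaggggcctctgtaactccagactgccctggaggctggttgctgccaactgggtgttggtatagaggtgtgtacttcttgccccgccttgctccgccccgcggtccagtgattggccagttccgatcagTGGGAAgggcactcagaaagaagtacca
Adam19: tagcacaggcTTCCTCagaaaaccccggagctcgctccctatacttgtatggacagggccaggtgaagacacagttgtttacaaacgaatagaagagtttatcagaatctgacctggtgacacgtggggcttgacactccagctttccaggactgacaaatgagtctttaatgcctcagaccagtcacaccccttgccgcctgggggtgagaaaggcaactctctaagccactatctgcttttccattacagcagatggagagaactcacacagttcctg

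The motifs searched on both strands were TGGGAA, the core of the RBP-J site, GAGGAA, the core of the PU.1 site, and TATAAA. In the full windows of 300 bases, Adam8 held 1 match to TGGGAA, just after the annotated start, and the shown window of Adam19 held 1 match to GAGGAA on the reverse strand, which reads TTCCTC. The other 2 windows of Adam19 and the windows of Adam15 and Adam23 held 0 matches to any of the 3 motifs. Of all 32851 windows in the table, 25.6% held TGGGAA, 28.3% GAGGAA and 13.6% TATAAA. Such matches are common, and they are a description of the letters and not of binding.

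Adamdec1 was far lower in both leukaemic spleens. It read 10.11 and 9.67 in wild type replicates 1 and 2, and 6.29 and 6.25 in leukaemic replicates 1 and 2. The groups stood far apart, and the leukaemic values lay close to each other at the dim end of the arrays. The difference was -3.62 (SE 0.18), 12.3-fold, and ranked first among all falls. With each mouse left out in turn, it stayed between -3.84 and -3.40. Adamdec1 was the 1 member called by limma, where 1.03% of all genes were called lower and 1.43% higher. Without leukaemic replicate 2, limma called 3 members lower, where it called 3.07% of all genes lower, and without wild type replicate 2 it called no gene. These counts rest on the values that led to the choice of the family, and nothing is read from them.

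The leukaemic values of Adamdec1 were low on the scale of the arrays. Means of 37 genes of tissues other than spleen, a rough guide to the dim end, had a median of 6.36 and a maximum of 8.42 in the leukaemic group. That maximum is Umod alone, whose wild type values were 6.54 and 6.52, and the next highest mean was 7.58, of Apoa2. The remaining level of 6.27 is therefore not shown to be above background, and the fold change is not an exact one. In whole spleen, fewer cells of a type and less RNA per cell cannot be told apart. Wild type replicate 2, the spleen with pancreas transcripts, had the lower of the wild type values, and the difference without it was -3.84.

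**Figure D1:**
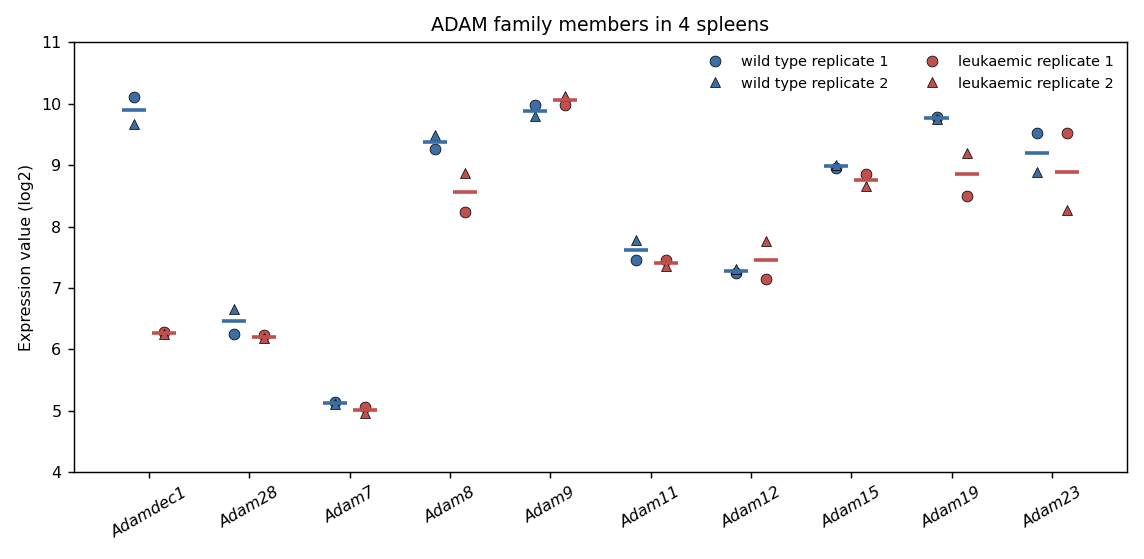
Expression values (log2, vertical axis) of the 10 members in each mouse. Circles are replicate 1 and triangles replicate 2, blue for wild type and red for leukaemic, and bars are group means. Adamdec1 drops from 10.11 and 9.67 to 6.29 and 6.25, Adam8 and Adam19 lie lower in both leukaemic mice, and Adam23 varies within both groups.

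Adamdec1, Adam28 and Adam7 lie next to each other on mouse chromosome 14. In the RefSeq gene table only 1 further gene, the model gene Gm41191, stands between Adam7 and Adamdec1. Adam28, the lymphocyte ADAM that binds the integrin chain alpha 4 and can shed CD23, read 6.25 and 6.66 in wild type against 6.23 and 6.19 in leukaemic spleen. Its difference was -0.25 (SE 0.17), and the groups nearly touched. Wild type replicate 2 alone stood higher, and without it the difference was -0.04. Adam7, known from the epididymis and without protease activity, read 5.14 and 5.11 in wild type against 5.07 and 4.97 in leukaemic spleen, a difference of -0.11 (SE 0.14). Values of both genes were among those of genes from other tissues, so they are not shown to be above background either. A fall in Adam28 or Adam7 could therefore hardly have been seen.

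The genes on either side of this cluster were measured as well. None of the 6 neighbours was called by limma. Dock5, a guanine nucleotide exchange factor, read 9.48 and 9.47 in wild type against 8.40 and 8.84 in leukaemic spleen (difference -0.86, SE 0.18, limma adjusted p = 0.060), and it was called lower without leukaemic replicate 2. The neurofilament genes Nefl and Nefm differed by 0.08 (SE 0.18) and 0.01 (SE 0.16). On the other side, Stc1, which encodes a stanniocalcin, differed by -0.20 (SE 0.14), and Nkx2-6, a homeobox gene, by 0.02 (SE 0.17). Slc25a37, the mitochondrial iron carrier mitoferrin, differed by -0.55 (SE 0.23, limma adjusted p = 0.23). In Dock5, Slc25a37 and Stc1 the groups did not overlap, which was so for 49.2% of all genes. Nefl, Nefm and Stc1 averaged 5.65, 5.47 and 6.47 in wild type, where the genes of tissues other than spleen had a median of 6.42, so a fall in these 3 could hardly have been seen. The difference between Adamdec1 and its neighbours was not tested.

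**Figure D2:**
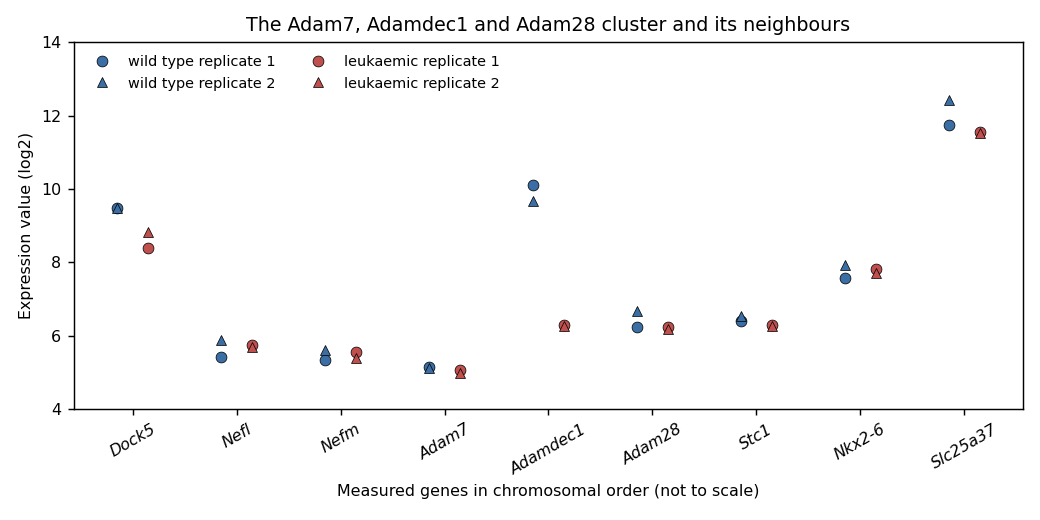
Expression values (log2, vertical axis) of Adam7, Adamdec1, Adam28 and the 3 measured genes on either side, in chromosomal order with even spacing. Circles are replicate 1 and triangles replicate 2, blue for wild type and red for leukaemic. The differences were -3.62 in Adamdec1, -0.11 in Adam7 and -0.25 in Adam28. Adam7 and Adam28 are not shown to be above background in wild type, so a fall in them could hardly have been seen.

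The 5 genes closest to Adamdec1 in pattern were found by the Euclidean distance of values centred on each gene's own mean over the 4 arrays. Klra17, a gene of the Ly49 receptor family, was closest, at a distance of 1.01, with 9.79 and 8.94 in wild type against 6.47 and 6.86 in leukaemic spleen. It was followed by Trgv1, a variable segment of the T cell receptor gamma chain (distance 1.19), and Map3k19, a protein kinase gene (1.31). Ncr1, the activating receptor NKp46 of natural killer (NK) cells, lay at 1.44, and Siglech, a marker of plasmacytoid dendritic cells, at 1.50. Adamdec1 is the gene with the largest fall, so a rule of this kind returns genes with large falls. Their differences lay between -2.79 for Trgv1 and -2.15 for Siglech. In leukaemic spleen Siglech read 7.25 and 7.27, and Trgv1 read 6.03 and 7.19.

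Markers of cells that could carry Adamdec1 were read beside it. Of 8 plasmacytoid dendritic cell genes 3 were called lower and 5 not called, where 1.03% of all genes were called lower. Their median difference was -0.79 against -0.03 over all genes. Their mean level was 9.97 and 9.71 in wild type against 8.65 and 8.90 in leukaemic spleen. Siglech fell by 2.15 (SE 0.26, limma adjusted p = 0.018) and Ccr9, a chemokine receptor gene, fell by 2.02 (SE 0.15, limma adjusted p = 0.0023). Conventional dendritic cell genes were called lower in 4 of 12 cases, with a median of -1.08 and mean levels of 9.04 and 8.78 against 7.91 and 8.03. Cd8a, which differed by -1.65 and was not called, is in this list and also in the T cell list. The marker lists are therefore not separate readings of single cell types. Clec9a, a receptor for dead cells on cross-presenting dendritic cells, fell by 1.51 (SE 0.17, limma adjusted p = 0.014). Flt3, a cytokine receptor that dendritic cells depend on, fell by 1.33 (SE 0.19, limma adjusted p = 0.027).

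Of 17 macrophage genes limma called 0, with a median difference of -0.49 and mean levels of 10.86 and 10.63 against 10.20 and 10.26. Timd4, a receptor for apoptotic cells, differed by -0.91 (SE 0.18, limma adjusted p = 0.052), and Slc40a1, the iron exporter, by -0.76 (SE 0.15, limma adjusted p = 0.056). Timd4 was called lower without leukaemic replicate 2, with an intensity trend in the variance prior and with the mean of probe sets. Slc40a1 was called lower with the intensity trend. Stroma genes were called lower in 1 of 15 cases, the chemokine gene Ccl19 (-1.19, SE 0.22, limma adjusted p = 0.048), with a median of -0.31. Limma called 1.03% of all genes lower. The Ccl19 call was also lost without leukaemic replicate 1, after median centring, after quantile normalization, and with all probe sets in the fit. Endothelial genes had 0 of 9 called and a median of 0.02. Vwf differed by -0.72 (SE 0.19) and Tek by 0.59 (SE 0.18). The medians of these lists lay between -1.08 and 0.02. Adamdec1 was chosen as the largest fall of all genes, so every list median lies above its -3.62. Nothing is read from that gap. A median also hides the spread of single markers. Plasmacytoid dendritic cell genes ran from -2.15 for Siglech to 0.23 for Tcf4. The part of any of these cell types in the difference of Adamdec1 was not tested.

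Adam8 and Adam19, which encode catalytic ADAMs, came next by size. Adam8, a sheddase of granulocytes and monocytes also called CD156a, read 9.26 and 9.49 in wild type against 8.24 and 8.87 in leukaemic spleen. The groups did not overlap, and leukaemic replicate 1 was the lower of the leukaemic mice. The difference was -0.82 (SE 0.22), 1.76-fold. Adam19, also called meltrin beta, which sheds neuregulin and is found on activated dendritic cells, read 9.78 and 9.74 in wild type against 8.50 and 9.19 in leukaemic spleen. Again the groups did not overlap and leukaemic replicate 1 was lower. Its difference was -0.91 (SE 0.23), 1.88-fold. Neither gene was among the limma calls, and nothing is read from calls of members, which without leukaemic replicate 2 included both. Both differences depended on the mouse, at -1.13 and -0.50 for Adam8 and -1.26 and -0.57 for Adam19 in leukaemic replicates 1 and 2 against the wild type mean.

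Marker lists of neutrophils, T cells and NK cells also averaged lower in leukaemic replicate 1 than in leukaemic replicate 2. This was not particular to them. Mature B cell markers averaged 9.55 and 10.16 in leukaemic replicates 1 and 2, and the macrophage and dendritic cell lists had the same order. The stroma and endothelium lists had the reverse order. Among wild type mice, Adam8 was higher in replicate 2. Adam19 was slightly higher in replicate 1, at 9.78 against 9.74. The T cell list was higher in replicate 1, and the neutrophil list only slightly so. Limma called 1.03% of all genes lower. Neutrophil genes averaged 11.05 and 11.01 in wild type, 9.39 in leukaemic replicate 1 and 10.36 in replicate 2, with 3 of 11 called lower and a median difference of -1.24. Camp, a granule peptide gene, fell by 1.24 (SE 0.21, limma adjusted p = 0.041) and Csf3r, a granulocyte growth factor receptor gene, fell by 1.22 (SE 0.19, limma adjusted p = 0.034). Both calls were also lost without leukaemic replicate 1 and after quantile normalization, and that of Camp with all probe sets in the fit. T cell genes averaged 10.38 and 9.91 in wild type against 8.20 and 9.06 in leukaemic spleen, with 5 of 10 called lower and a median of -1.59. Cd3g fell by 1.78 (SE 0.33, limma adjusted p = 0.049) and Cd3e, also a chain of the T cell receptor complex, fell by 1.70 (SE 0.29, limma adjusted p = 0.039). Neither was called after quantile normalization, and Cd3g was also not called after median centring, with the dimmest 33% of genes left out, or with all probe sets in the fit. NK cell genes had 4 of 8 called lower and a median of -1.36, led by Ncr1 (-2.29, SE 0.24) and Klrd1 (-2.05, SE 0.31), and Klrd1 was not called after quantile normalization. Whether fewer such cells account for the values of Adam8 and Adam19 was not tested.

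The catalytic members Adam9, Adam15 and Adam12 differed little. Adam9, or meltrin gamma, which sheds ligands of the epidermal growth factor receptor, read 9.97 and 9.80 in wild type against 9.99 and 10.13 in leukaemic spleen. The leukaemic mice were higher by a narrow margin, and the difference was 0.17 (SE 0.15). Adam15, or metargidin, found on leukocytes and endothelium, had a wild type mean of 8.98 ± 0.03 (SD, n = 2) and leukaemic values of 8.85 and 8.66. All values lay close together, with a difference of -0.22 (SE 0.14). Adam12, or meltrin alpha, which cleaves insulin-like growth factor binding proteins, read 7.24 and 7.31 in wild type against 7.15 and 7.77 in leukaemic spleen. Wild type means of the genes of tissues other than spleen reached 7.72, so Adam12 is not shown to be above background. Its leukaemic values lay on either side of the wild type values, and the difference of 0.18 (SE 0.21) became -0.12 without leukaemic replicate 2 and 0.49 when replicate 1 was left out.

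The catalytically silent members Adam11 and Adam23 are best known from the nervous system, where they bind secreted LGI proteins. Adam11 read 7.46 and 7.78 in wild type against 7.45 and 7.36 in leukaemic spleen, a difference of -0.21 (SE 0.16). Wild type replicate 2 was the high value, and without it the difference was -0.05. The wild type mean of Adam11, 7.62, lay below 7.72, the highest wild type mean among genes of tissues other than spleen. Adam11 is thus not shown to be above background. Adam23 read 9.52 and 8.88 in wild type against 9.52 and 8.26 in leukaemic spleen. Replicate 1 of either group stood at 9.52 and replicate 2 lower, so the spread within the groups exceeded the difference of -0.31 (SE 0.40). Adam23 had the largest SD of the members in either group, 0.45 in wild type and 0.88 in leukaemic spleen (n = 2 each). Its difference was -0.93 without leukaemic replicate 1 and 0.32 when replicate 2 was left out. Of 4 LGI genes limma called 0, with 1 at an unadjusted p under 0.05. Lgi3 differed by -0.34 (SE 0.14) and Lgi1 by 0.16 (SE 0.15). Wild type means of the LGI genes reached only 7.14, below 7.72, so these genes are not shown to be above background either.

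**Figure D3:**
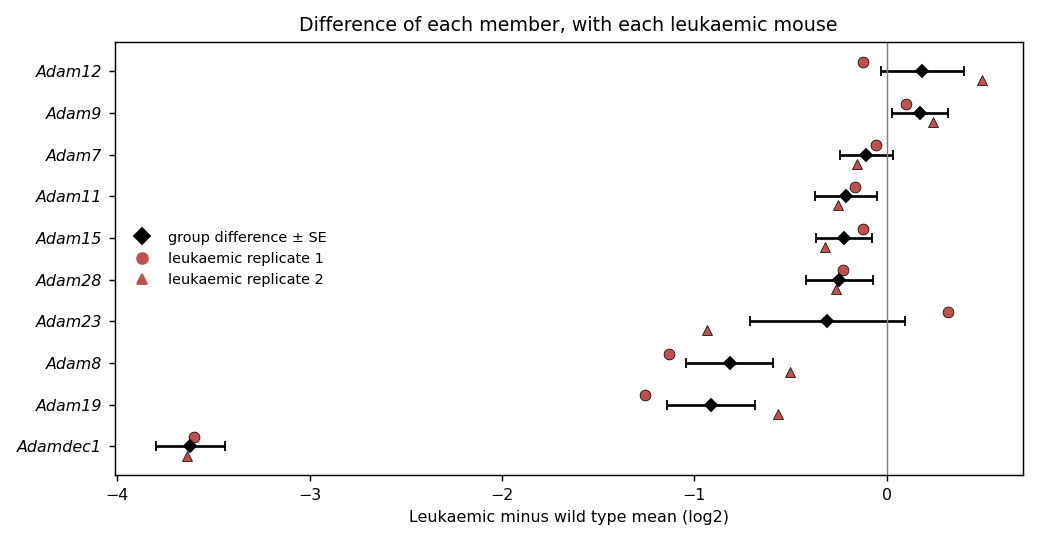
Leukaemic minus wild type mean (log2, horizontal axis) of each member. Diamonds with bars are the group difference and its SE from the limma fit, and circles and triangles are leukaemic replicates 1 and 2 against the wild type mean. Adamdec1 lies at -3.62, Adam19 and Adam8 at -0.91 and -0.82, and the others between -0.31 and 0.18.

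Across the 10 members, 8 differences were below 0 and the median was -0.24, against -0.03 for all genes. Arrays of the groups did not overlap for 8 members, 7 lower and 1 higher. Over all genes 49.2% did not overlap, and 26.2% did not overlap and were lower. The members were chosen in this contrast, so the excess is not a result about the family.

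The 25 other ADAM genes with a probe set of their own showed no call. Their wild type means had a median of 5.48, against 6.42 for the genes of tissues other than spleen. A fall in most of them could hardly have been seen. Limma called 0 of 25, with 1 at an unadjusted p under 0.05 and a median difference of -0.07. That gene was Adam22, the third LGI-binding relative, at 7.23 and 7.27 in wild type against 6.94 and 6.60 in leukaemic spleen (difference -0.48, SE 0.16, limma adjusted p = 0.16). Adam5, a testis gene, had the next smallest p and differed by -0.23 (SE 0.16). The main sheddases Adam10 and Adam17, named after their values were seen, differed little. Adam10, which cuts Notch receptors and CD23, read 10.73 and 10.89 in wild type against 10.76 and 10.71 in leukaemic spleen, a difference of -0.07 (SE 0.14). Adam17, the converting enzyme of tumour necrosis factor, read 10.76 and 10.51 in wild type against 10.82 and 10.62 in leukaemic spleen, a difference of 0.09 (SE 0.16). Adam6a and Adam6b, which lie inside the immunoglobulin heavy chain locus and were also named after their values were seen, differed by 0.08 (SE 0.15) and 0.35 (SE 0.25). Adam6b read 6.88 in leukaemic replicate 2 and between 6.09 and 6.16 in the other mice. These genes are close copies of each other, so their probe sets may share signal.

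Related protease families gave no calls either. Of 22 ADAMTS genes, secreted proteases of the extracellular matrix and their like proteins, limma called 0, with 5 at an unadjusted p under 0.05. Adamtsl2 differed by -0.67 (SE 0.15, limma adjusted p = 0.065) and Adamts5, an aggrecan-cleaving enzyme, by 0.76 (SE 0.17, limma adjusted p = 0.070). Of 22 matrix metalloprotease (MMP) genes limma called 0, with 6 at an unadjusted p under 0.05. Mmp9, the gelatinase of neutrophils and macrophages, read 10.14 and 10.48 in wild type against 8.31 and 9.41 in leukaemic spleen (difference -1.46, SE 0.34, limma adjusted p = 0.073), with leukaemic replicate 1 the lower mouse as in Adam8. Mmp23 differed by -0.59 (SE 0.16, limma adjusted p = 0.10). Mmp8, named after its value was seen, had the lowest difference of the MMP list (-1.54, SE 0.46, limma adjusted p = 0.13). It is also in the neutrophil list, so the lists share a gene. Without leukaemic replicate 2, limma called 3 MMP genes lower (3.07% of all genes), and without leukaemic replicate 1 it called 1 higher (1.46% of all genes).

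Among 18 measured regulators of ADAM activity, 1 fell and 17 were not called, with 7 at an unadjusted p under 0.05. Limma called 1.03% of all genes lower. The list held tissue inhibitors (Timp), proprotein convertases, iRhoms and the tetraspanins that guide Adam10. Reck, a membrane-anchored inhibitor of metalloproteases, read 8.68 and 8.20 in wild type against 7.21 and 7.34 in leukaemic spleen. The groups did not overlap, and Reck fell by 1.17 (SE 0.19, limma adjusted p = 0.034). That call was lost without either wild type mouse and after quantile normalization. Timp1, named after its value was seen, lay the other way at 7.84 and 7.46 in wild type against 8.68 and 8.38 in leukaemic spleen (difference 0.89, SE 0.19, limma adjusted p = 0.061), and it was called higher without leukaemic replicate 2.

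Of 39 measured genes whose proteins ADAMs are known to shed or cut, 5 fell, 0 rose and 34 were not called. Limma called 1.03% of all genes lower and 1.43% higher. The median difference of the 39 was -0.32 against -0.03 over all genes. Igfbp3, an insulin-like growth factor binding protein that ADAM12 and ADAM28 cleave, read 11.10 and 10.56 in wild type against 9.06 and 9.30 in leukaemic spleen, and fell by 1.65 (SE 0.21, limma adjusted p = 0.020). Icosl, the ligand of the T cell costimulator ICOS, read 10.65 and 10.30 against 8.76 and 9.27, and fell by 1.46 (SE 0.21, limma adjusted p = 0.029). The other calls, named after their values were seen, were Tnf, Il6ra and Notch2. The cytokine gene Tnf fell by 1.13 (SE 0.16, limma adjusted p = 0.026). Il6ra, the interleukin 6 receptor gene, read 10.35 and 10.29 in wild type against 9.19 and 9.45 in leukaemic spleen (limma adjusted p = 0.032). Notch2, the receptor gene, read 11.04 and 11.11 in wild type against 9.90 and 10.26 in leukaemic spleen (limma adjusted p = 0.037). Without wild type replicate 1 limma called 0 of the 39, with 12 at an unadjusted p under 0.05. Il6ra and Notch2 were also not called without leukaemic replicate 1, and Notch2 not after quantile normalization.

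Integrin chains that bind ADAM disintegrin domains included 1 of 9 that fell. Limma called 1.03% of all genes lower and 1.43% higher. Itgb7, the beta 7 chain of lymphocyte homing receptors, read 9.30 and 9.14 in wild type against 7.87 and 8.33 in leukaemic spleen, and fell by 1.12 (SE 0.19, limma adjusted p = 0.037). That call was lost without wild type replicate 1, without leukaemic replicate 1 and after quantile normalization. The substrate list shares genes with marker lists, so these are not separate readings. Fcer2a is also in the mature B cell list. Csf1r, Vcam1, Mertk and Cd163 are also in the macrophage list, with a median of -0.49. Pecam1 and Cdh5 are also in the endothelium list, with a median of 0.02. Of 10 mature B cell genes 5 fell, with a median of -1.25, among them Fcmr, the IgM receptor (-2.01, SE 0.24), and Cr2, the complement receptor CD21 (-1.86, SE 0.24). Of 12 precursor B cell genes 9 rose, led by Igll1 (5.47, SE 0.14) and Enpep (4.77, SE 0.23). The part of cell composition in the protease-linked genes was not tested.

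**Figure D4:**
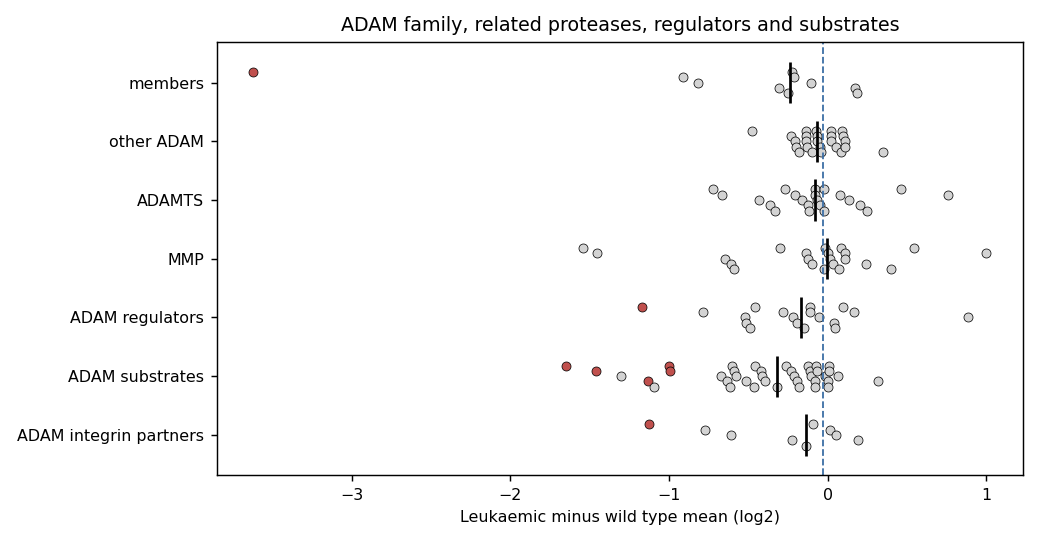
Leukaemic minus wild type mean (log2, horizontal axis) of every measured gene in the members and the 6 lists of related genes, 1 point per gene with vertical spread for legibility. Red points were called by limma, black bars are list medians, and the dashed line is the median of all genes at -0.03. Adamdec1 at -3.62 stands alone on the left, and the called genes of the lists reach -1.65 (Igfbp3).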

How the data were processed

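The authors deposited log2 expression values for 23309 probe sets on 4 arrays. RMA, R 2.15.0 and limma 3.12.1 are named in the submitters' processing notes, with no settings stated in the sources used here. Neither detection calls nor scan batches entered the analysis. Names came from 20729 probe sets with 1 symbol in the platform annotation; 1174 had several and 1406 none. The 804 genes with several sets were represented by the brightest.

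Groups and replicate numbers came from the sample titles. The group contrast was fitted in R 4.3.3 by limma 3.58.1 (functions lmFit and eBayes, no covariate, no filter), with Benjamini-Hochberg adjustment over 19297 genes and calls at an adjusted p under 0.05. The fit had 2 residual and 4.83 prior degrees of freedom. An exact permutation test of 2 against 2 mice cannot go below p = 0.333. SE are those of the moderated fit. The fit was tested on simulated data.

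Members and lists were chosen with earlier results of these data known. Named genes were the members, up to 2 called genes in each direction per list (otherwise the 2 of smallest p), the 5 nearest to Adamdec1, and 3 neighbours on each side. Some genes of the lists were not analysed here. Promoters were searched in Python 3.11.15; protein motifs and Ren1 were not analysed here. Alternatives were median centring, quantile normalization, leaving out the dimmest 33% of genes, another variance prior, averaging probe sets, fitting unnamed rows too, a replicate block, and leaving out each mouse.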

Additional observations from a re-analysis of the deposited data

How the results depend on the processing

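The Adamdec1 difference stayed between -3.84 and -3.40 with each mouse left out, and that of Adam28 between -0.45 and -0.04. Quantile normalization gave 261 calls over all genes against 475, 0 of the regulators and 0 of the integrin partners. Centring arrays on their medians gave 350 higher and 147 lower calls, and moved the median difference of all genes from -0.03 to 0.03. The replicate number marks individual mice with no stated pairing, and deviations of same-numbered mice correlated at -0.089 over genes. With that number as a replicate block, limma called 1693 genes over all, 3 members, 3 ADAMTS genes, 3 MMP genes, 3 regulators, 9 substrates and 3 integrin partners. With each mouse left out, calls ranged from 0 to 1043 over all genes, 0 to 3 for members and MMP genes, 0 to 2 for regulators and integrin partners, 0 to 7 for substrates, and were 0 for other ADAM and ADAMTS genes. Those fits have 1 residual degree of freedom and assume that a lone mouse varies like the other group; the cause of the changed counts was not tested beyond this. Outside the members, the sign of 7 uncalled named genes turned in these fits. Nefl ranged from -0.15 to 0.30, Nefm from -0.13 to 0.14, Nkx2-6 from -0.17 to 0.20 and Adam10 from -0.15 to 0.012. Adam17 ranged from -0.037 to 0.21, Adam6a from -0.0092 to 0.18 and Adam6b from -0.044 to 0.75. Among the members, Adam12 ranged from -0.12 to 0.49 and Adam23 from -0.93 to 0.32. No detection calls were used, so dim values such as those of Adam7 and Adam28 have no shown lower bound.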

Other observations

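Umod, which encodes uromodulin of the kidney and served here only among genes of tissues other than spleen, read 6.54 and 6.52 in wild type against 9.09 and 7.74 in leukaemic spleen. Its difference of 1.88 (SE 0.39) did not pass (limma adjusted p = 0.059), and limma called it under 4 of 11 alternatives. In the same list Serpina1c differed by -0.39 (SE 0.17, limma adjusted p = 0.25). Of the exocrine pancreas genes, Zg16 read 11.88 in wild type replicate 2 and between 6.40 and 7.13 in the other mice, and Pnliprp1 read 11.21 there and between 5.16 and 5.33 in the others. Adam11 and Adam28 were higher in that spleen than in wild type replicate 1, by values given with each gene. Genes of tissues other than spleen also averaged higher there, 6.29 against 6.13, as did the other ADAM genes, 5.99 against 5.86. The mean of the 10 members was lower there, 8.34 against 8.37. The part of pancreas RNA in these values was not tested. A probe set listed under Gm4787 and Adam4 together read 7.31 and 7.04 in wild type against 7.21 and 7.04 in leukaemic spleen.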
